A study of Mus musculus with 6 samples.

Results

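The genes described here are 9 genes of neutrophils, taken by the gene symbol of their array probes and not by any measured value. They are S100a8 and S100a9, the subunits of calprotectin, Mpo and Elane, enzymes of the azurophil granules, Camp, Ngp, Ltf and Lcn2 of the specific granules, and Chil3, a chitinase-like protein of myeloid cells. All 9 had a probe, out of 16593 genes named on the array. Their 14 probes include several for Mpo, Ltf and Chil3, and the brightest probe of a gene gave its value. RNA came from dissected dental tissue of the lower incisor of C57BL/6 mice aged 4 weeks. Control mice (CON) carried floxed Med1 alleles (MED1 fl/fl) without Cre, and their littermates (KO) carried the same floxed alleles with a Cre driven by the keratin 14 promoter, which removes the coactivator Med1 from keratin 14 expressing epithelia and leaves it in other cells, the leukocytes included. Both genotypes were sampled at the cervical loop (CL), where the epithelial stem cells lie, and at the secretory (Sec) and maturation (Mat) stages of enamel formation. Each array held the pooled tissue of 3 mice and each genotype and stage had 1 array, so the 6 arrays give no spread between animals and no test at a single stage.

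Neutrophils are short-lived leukocytes that are made in bone marrow, circulate in blood and enter tissue at sites of infection or injury. Their granules are filled in sequence as the cell matures. Azurophil granules are made first, at the promyelocyte stage, and specific granules follow at the myelocyte stage, so mRNA of granule proteins is a sign of cells still maturing more than of those in tissue. Calprotectin fills the cytosol of mature neutrophils, binds zinc, manganese and calcium, and is also made by keratinocytes of inflamed or wounded skin. Lcn2 is likewise made by stressed epithelia, and Ltf by secretory epithelia, so these genes do not belong to a single cell type.

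The members lie on several chromosomes. S100a8 and S100a9 are neighbours on chromosome 3, which also holds Chil3, and Camp, Ngp and Ltf are on chromosome 9, with Lcn2 on chromosome 2, Elane on chromosome 10 and Mpo on chromosome 11. RefSeq promoter windows of build GRCm38.p6 were found for all 9, and the 250 bases before the start of transcription were searched on both strands for letters that C/EBP factors, PU.1 and the TATA-binding protein are known to bind. C/EBP factors and PU.1 are transcription factors of the granulocyte lineage. The sequences of both calprotectin genes, of Mpo and of Ngp are shown as examples. Each holds a full form of the C/EBP or PU.1 letters, as do those of Elane, Ltf and Lcn2, which are not shown. The window of S100a8 is chr3:90668821-90669070 on the plus strand, that of S100a9 chr3:90695722-90695971 on the minus strand, that of Mpo chr11:87793534-87793783 on the plus strand and that of Ngp chr9:110419558-110419807 on the plus strand. Each is written 5′ to 3′ on the strand of its gene, and capitals mark a match to the C/EBP form TTGCNNAA or the PU.1 form GAGGAAGT on either strand.
S100a8: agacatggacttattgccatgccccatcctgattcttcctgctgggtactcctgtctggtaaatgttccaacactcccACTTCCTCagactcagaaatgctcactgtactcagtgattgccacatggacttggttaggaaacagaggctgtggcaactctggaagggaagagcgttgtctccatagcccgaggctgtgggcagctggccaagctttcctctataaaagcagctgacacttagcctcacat
S100a9: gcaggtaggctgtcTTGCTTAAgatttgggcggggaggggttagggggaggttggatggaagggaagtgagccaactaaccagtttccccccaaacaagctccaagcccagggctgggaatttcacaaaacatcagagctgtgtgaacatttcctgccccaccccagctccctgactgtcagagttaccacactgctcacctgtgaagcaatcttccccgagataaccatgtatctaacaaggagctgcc
Mpo: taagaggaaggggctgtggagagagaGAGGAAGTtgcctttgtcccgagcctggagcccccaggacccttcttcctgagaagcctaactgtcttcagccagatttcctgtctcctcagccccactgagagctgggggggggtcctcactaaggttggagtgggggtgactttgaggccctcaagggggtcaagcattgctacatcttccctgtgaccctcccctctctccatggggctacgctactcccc
Ngp: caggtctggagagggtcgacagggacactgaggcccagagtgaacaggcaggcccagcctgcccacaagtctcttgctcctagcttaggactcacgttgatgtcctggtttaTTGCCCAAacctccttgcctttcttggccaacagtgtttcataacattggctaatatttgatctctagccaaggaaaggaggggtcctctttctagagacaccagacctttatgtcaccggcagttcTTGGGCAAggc

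The C/EBP form TTGCNNAA was found before S100a9, Ngp, Ltf and Lcn2, that is 4 of the 9 members, and in 9.56% of all 32851 promoter windows. Ngp held 2 matches, beginning at positions -138 and -11 from its start. The looser form TTNNGNAA, which contains every match of the first, was found before 6 of the 9 and in 36.8% of windows. The PU.1 form GAGGAAGT was found before S100a8, Mpo and Elane, 3 of the 9, against 2.44% of windows, and its core GAGGAA before 5 of the 9, against 23.3%. TATAAA was found before S100a8 alone among the members, at position -30, and in 12.4% of windows. Camp held none of these letters in its window. A match is a description of letters and not a binding site, and no binding was measured.

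**Figure D1:**
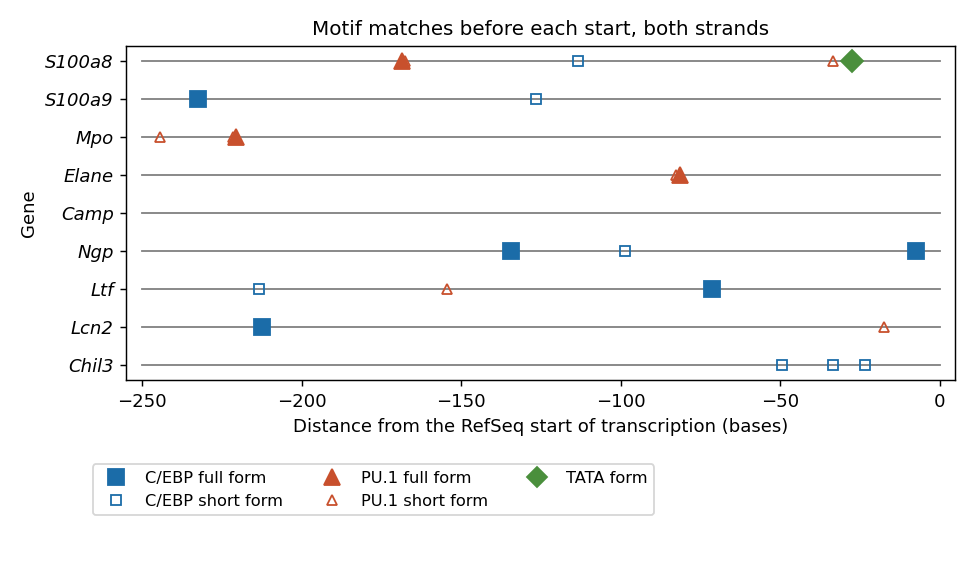
Positions of motif matches in the 250 bases before the start of each of the 9 genes, with distance from the start in bases on the horizontal axis and 1 line per gene. Squares are C/EBP forms, triangles PU.1 forms and the diamond the TATA form, filled for the full and open for the short form. Camp has no match, and Ngp has 2 full C/EBP forms.

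Probe intensities of the bead array were corrected for background, normalized and put on the log2 scale, so that a difference of 1 is a doubling. A probe was called detected at a detection p-value under 0.01 against the negative-control beads of its array. Between 8355 and 8955 genes were detected on each array. The floor, the lowest detected value on an array, lay between 5.83 and 6.19. Of the members, 8 were detected on all 6 arrays and Elane on 3. The dental label held, since the enamel matrix genes Ambn and Amelx had log2 values of 14.78 to 15.32 on every array. Med1 had a log2 value of 9.58, 9.35 and 9.15 in CON at CL, Sec and Mat and of 9.04, 8.72 and 8.66 in KO. KO lay below CON at each stage, and whether its probe lies in the deleted part of the gene is not given in the sources used here.

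In CON the granule and calprotectin genes were brightest at CL and, in the 8 detected throughout, dimmest at Sec, and in KO they were brightest at CL and dimmest at Mat. KO exceeded CON on the log2 scale by 0.37 to 0.97 at CL, and in the 8 genes measured on both Sec arrays the gap was 1.47 to 1.80. At Mat the genotypes lay close, from -0.19 to 0.28, with the exception of S100a8 at 0.87. The tissue is bulk, so more cells of a type and more RNA per cell cannot be told apart.

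**Figure D2:**
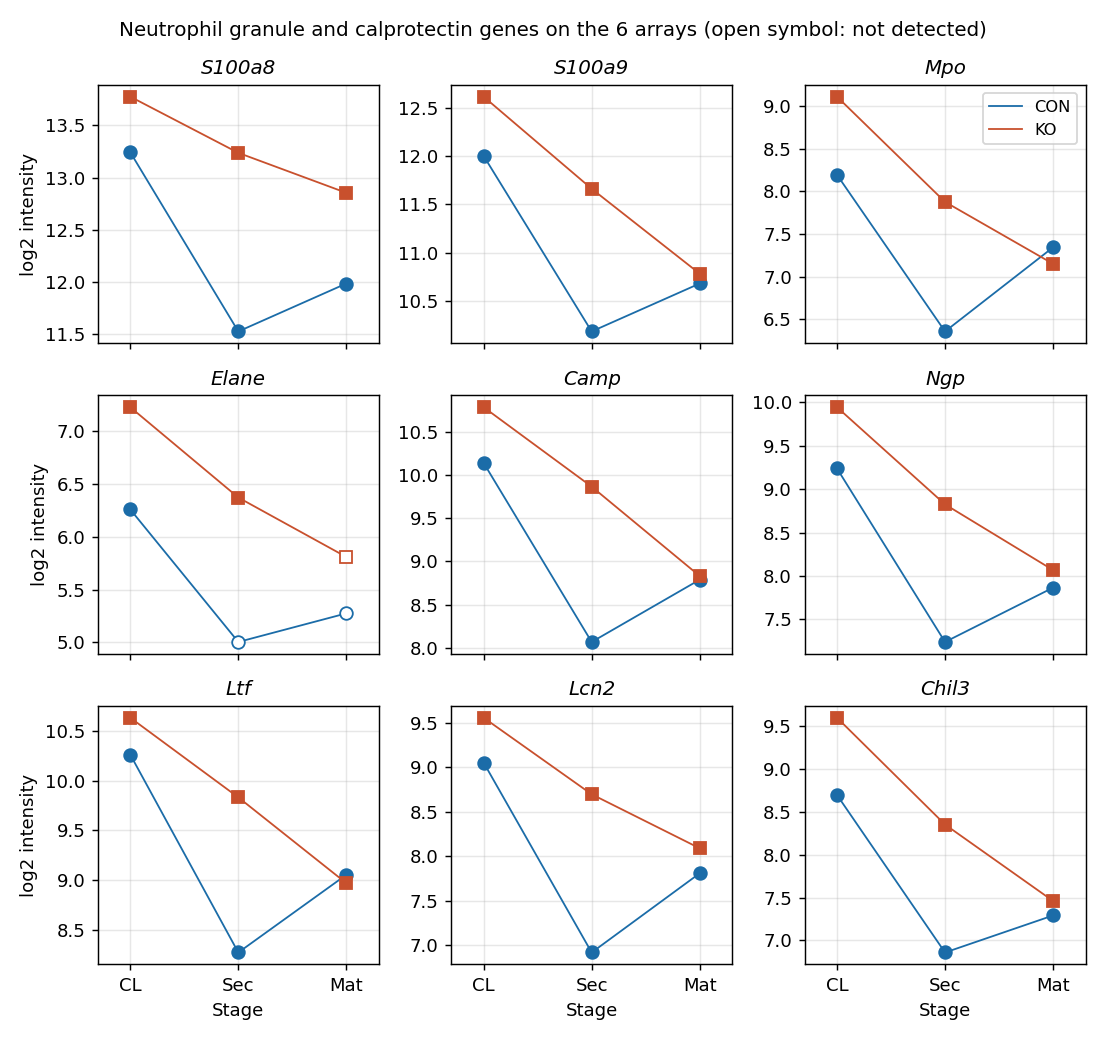
Log2 intensity of the 9 genes (vertical axis, its range set for each gene) at the CL, Sec and Mat stages (horizontal axis), in CON as circles and KO as squares, with 1 array per point and open symbols where the probe was not detected. KO at CL is the highest point in every panel, and CON at Sec is the lowest in the 8 panels without open symbols.

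S100a8, the calprotectin subunit that pairs with S100a9, had log2 values in CON of 13.24, 11.53 and 11.98 for CL, Sec and Mat, and of 13.78, 13.24 and 12.85 in KO. Its lowest KO value lay below CON at CL and above CON at Sec and Mat, and it was the only member with a difference of over 1.5-fold at Mat. The differences (KO minus CON) were 0.53 at CL, short of 1.5-fold, 1.71 at Sec (3.28-fold) and 0.87 at Mat (1.83-fold). S100a9, whose protein carries the long tail of the calprotectin complex, had values of 12.00, 10.19 and 10.68 in CON and of 12.61, 11.66 and 10.79 in KO at CL, Sec and Mat. It differed by 0.61 at CL (1.53-fold), by 1.47 at Sec (2.77-fold) and by 0.10 at Mat, so the subunits parted at Mat, where S100a8 stayed higher in KO and S100a9 was level with CON. At Mat the sign of the S100a9 difference turned to -0.08 when the arrays were scaled to a common median.

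Mpo, myeloperoxidase, makes hypochlorous acid from hydrogen peroxide and chloride. Its values were 8.19, 6.36 and 7.34 in CON and 9.11, 7.88 and 7.15 in KO at CL, Sec and Mat. KO was higher by 0.92 at CL and by 1.52 at Sec, and differed by -0.19 at Mat, less than 1.5-fold. Of its other 2 probes, 1 was detected on 1 array and 1 on none. Elane, neutrophil elastase, the serine protease of the same granules, had 6.26 in CON and 7.23 in KO at CL (a difference of 0.97, or 1.96-fold). At Sec it was detected in KO (6.37) and not in CON (5.0), which gives a difference of at least 0.24, and at Mat in neither (5.28 and 5.81). Elane could thus be compared on both sides at CL only.

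Among the specific granule genes, Camp, the precursor of the antimicrobial peptide CRAMP, had values of 10.14, 8.07 and 8.79 in CON and of 10.79, 9.87 and 8.83 in KO at CL, Sec and Mat. Its difference of 1.80 at Sec (3.48-fold) was the highest of the 9 by the brightest probes. With the deposited normalized values S100a8 ranked above it (1.67 against 1.42), and with the mean of all probes Chil3 did (1.81). At Mat the difference of Camp was 0.04, or -0.02 with common median scaling. Ngp, neutrophilic granule protein, had 9.24, 7.24 and 7.87 in CON and 9.94, 8.82 and 8.07 in KO. It was higher in KO by 0.71 at CL (1.63-fold) and by 1.58 at Sec (3.00-fold), and at Mat the arrays differed by 0.20. Ltf, the iron-binding lactotransferrin, had 10.26, 8.27 and 9.05 in CON and 10.63, 9.83 and 8.97 in KO. Its difference was the smallest of the 9 at CL (0.37), was 1.56 at Sec and lay below 0 at Mat (-0.09), and its other probe was detected on no array. Lcn2, which binds the iron-carrying siderophores of bacteria, had 9.05, 6.92 and 7.81 in CON and 9.56, 8.70 and 8.09 in KO. KO exceeded CON by 0.51 at CL, short of 1.5-fold, by 1.78 at Sec (3.44-fold) and by 0.28 at Mat. In all 4 the same picture held, a gap at Sec and levels within 1.5-fold at Mat.

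Chil3, also called Ym1, is secreted by maturing neutrophils and by activated macrophages. It had values of 8.70, 6.86 and 7.29 in CON and of 9.60, 8.35 and 7.46 in KO. The difference was 0.90 at CL (1.87-fold), 1.49 at Sec (2.81-fold) and 0.17 at Mat. Its other 2 probes, detected on 5 and on 4 arrays, differed at CL by 1.06 and 1.04. Neither was detected in CON at Sec, which gives differences of at least 1.79 and at least 1.12 there, and all 3 probes were thus brighter in KO at CL and Sec. Chil4, a close relative, was detected on no array.

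By the rule of a 1.5-fold difference with the brighter array detected, 6 of the 9 members were higher in KO at CL, where 1.81% of 8794 genes were. The other 3, S100a8, Ltf and Lcn2, were neither higher nor lower. At Sec 8 of the 9 were higher, against 11.7% of 9073 genes, and the exception was Elane with its bound. At Mat 1 of the 8 detected members was higher, against 12.6% of 9218 genes, and none was lower at any stage. The median difference of the members was 0.65 at CL, 1.56 at Sec and 0.13 at Mat, beside medians over all genes considered of -0.02, -0.10 and -0.14. These counts describe pairs of arrays. With a fold of at least 2 no member was higher at CL or Mat and the count at Sec stayed at 8. At that fold 31 of the 8794 genes were higher at CL, 580 of 9073 at Sec and 679 of 9218 at Mat.

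**Figure D3:**
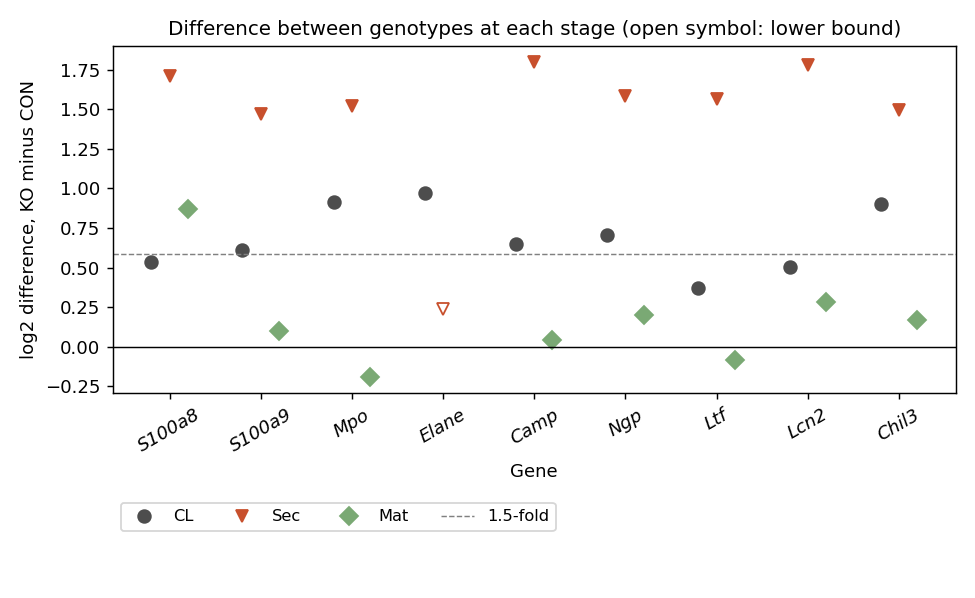
Log2 difference (KO minus CON, vertical axis) of each of the 9 genes at CL (circles), Sec (triangles) and Mat (diamonds), each from 1 array per genotype, with the dashed line at 1.5-fold and an open symbol for a lower bound. At Sec 8 genes lie between 1.47 and 1.80, and at Mat only S100a8 is above the dashed line. Elane was detected in neither genotype at Mat and has no point there.

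Over the 3 stages limma, with genotype and stage as terms, called none of 8697 genes (0%), while 338 were higher and 519 lower in KO at an unadjusted p under 0.05, among them 4 of the 9 members. S100a8 had a fitted difference of 1.04 ± 0.27 (SE, 3 arrays a genotype) with an adjusted p of 0.496, and Ltf the smallest at 0.62 ± 0.35 with an adjusted p of 0.554. The other members lay between these, and the spread that the fit measures is that between stages. The fit takes Elane at its measured values on the 3 arrays that did not detect it.

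Between stages, the change from CL to Sec in CON lay between -2.14 and -1.72 in 8 members (3.29-fold to 4.40-fold lower), which counted as lower where 5.58% of 8757 genes did. Elane, detected at CL only, was lower at Sec by at least 1.09-fold. The deepest fall was that of Lcn2 and the shallowest that of S100a8. From Sec to Mat in CON, 5 of 8 detected members were higher, by 0.63 in Ngp to 0.99 in Mpo, against 13.3% of 8829 genes. CON at Mat was still below CON at CL in 8 of the 9, with differences from -0.85 in Mpo to -1.40 in Chil3 (20.6% of 8944 genes were lower).

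In KO the course was a descent. From CL to Sec 8 members were lower, against 19.2% of 9249 genes, and S100a8 had a difference of -0.54, short of 1.5-fold. From Sec to Mat 7 were lower, against 7.22% of 9143 genes, S100a8 and Elane being neither. Between CL and Mat all 9 were lower, against 24.6% of 9470 genes, with differences from -0.92 in S100a8 to -2.14 in Chil3. Over the 2 genotypes limma's stage contrasts called no member. Sec minus CL lay between -1.56 and -1.06 with adjusted p from 0.396 to 0.415, and Mat minus CL between -1.77 and -1.09 with adjusted p from 0.0724 to 0.114. Mat minus Sec lay between -0.23 and 0.14 with adjusted p from 0.871 to 0.984. This contrast averages genotypes that moved in opposite directions from Sec to Mat. The median change of the detected members was 0.67 in CON and -0.76 in KO. Each of the first 2 contrasts called 1 gene of 8697 (0.0115%) and Mat minus Sec none (0%). All 9 members had an unadjusted p under 0.05 in both contrasts against CL and none had one in Mat minus Sec. Of the 8697 genes, 482 were higher and 530 lower at that threshold in Sec minus CL. In Mat minus CL the counts were 1044 and 1695, and in Mat minus Sec 255 and 368.

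The order of the arrays was nearly the same in every member. KO at CL was highest and CON at Sec lowest in all 8 members detected on every array, a pair of extremes shared by 71 of 8697 genes (0.816%). CON at CL and KO at Sec came next, in this order, in all 8. Elane was also highest in KO at CL, these next arrays changed places at 6.26 and 6.37, and the other 3 did not detect it. In S100a8 they were level at 13.24. Across the 6 arrays the Pearson correlation between members ran from 0.902 to 0.998 with a median of 0.98 over the 36 pairs. All pairs share the same 6 libraries and their normalization, so this is a description.

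Outside the members, the genes of most similar pattern were sought among 989 genes detected on at least 3 arrays with a range of at least 2 on the log2 scale. Cd177, a surface glycoprotein of neutrophils, was the nearest to S100a8 (r = 0.976 over 6 arrays) and to Ltf (r = 0.976). It was detected on 3 arrays only, and r uses its readings below detection in CON at Sec and on both Mat arrays. The difference of Cd177 at Sec was at least 0.25, which the 1.5-fold rule did not call. With S100a8 followed Ifitm6, an interferon-induced transmembrane protein (0.953), Prg2, the major basic protein of eosinophils (0.944), Retnlg, a resistin-like protein of myeloid cells (0.900), and Slc4a1, the anion exchanger of red cells (0.879). With Ltf followed Retnlg (0.971), Prg2 (0.959), Ifitm6 (0.946) and Xist (0.931). Retnlg had values of 9.08, 7.46 and 7.77 in CON and 9.91, 8.66 and 7.86 in KO, the course of the members. Prg2 went the same way, with 8.72, 7.20 and 7.52 in CON and 9.45, 8.27 and 7.96 in KO, whereas Epx, which encodes eosinophil peroxidase, was detected on no array.

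Xist, the RNA that coats the inactive X chromosome in female cells, had values of 11.11, 5.38 and 9.02 in CON and of 11.07, 8.72 and 7.84 in KO at CL, Sec and Mat, and was not detected in CON at Sec. Eif2s3y of the Y chromosome, which the naming rule did not choose, ran against it, with 6.36, 10.15 and 9.44 in CON and 8.08, 8.86 and 8.97 in KO. The labels give no sex. The array with the lowest Xist, CON at Sec, was the lowest for the 8 members detected on every array. The 2 CL arrays were highest for Xist and nearly so for the members, so Xist and the members shared these extremes. The part of the make-up of the pools in the differences between stages and genotypes was not tested. Between KO and CON Xist differed by -0.04 at CL, by at least 2.59 at Sec and by -1.18 at Mat. For Eif2s3y the differences were 1.72, -1.29 and -0.47.

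**Figure D4:**
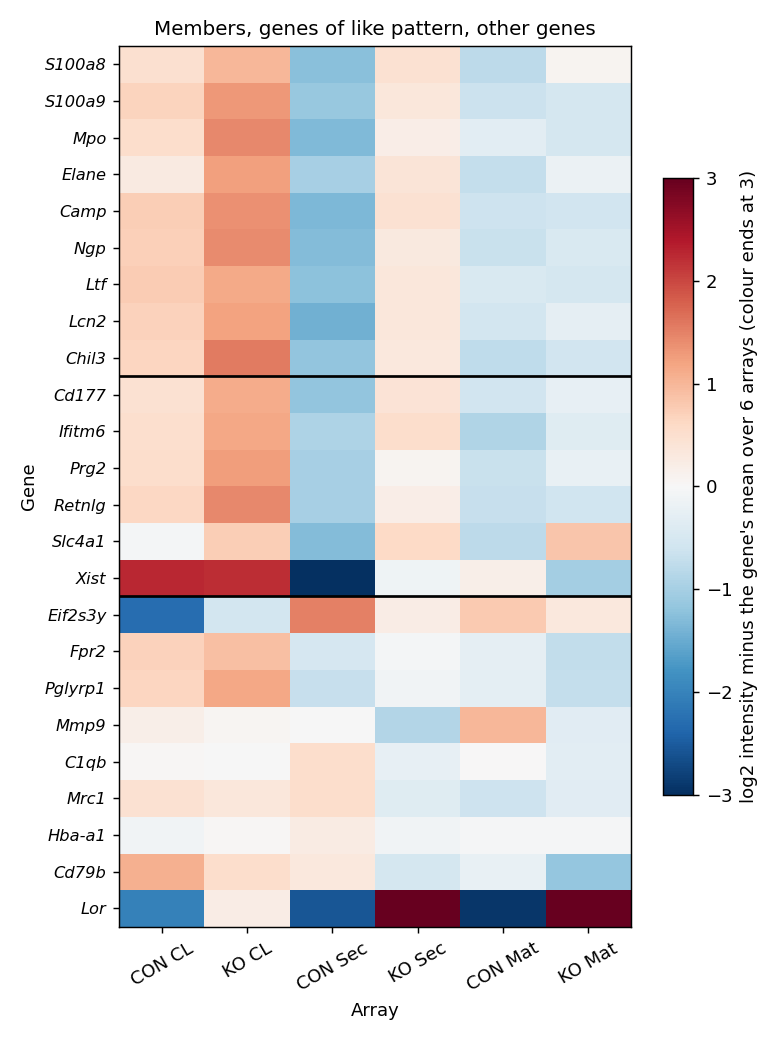
Log2 intensity of each gene minus its mean over the 6 arrays (colour, which ends at 3 either side of 0), for the 9 members at the top, the 6 genes of most similar pattern in the middle and 9 other genes named in the text below, with the arrays in columns. The members and Cd177 share a pale to dark red at CL and blue in CON at Sec, while C1qb, Mrc1 and Mmp9 do not. Elane and Cd177 were not detected in CON at Sec.

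The neutrophil label was checked on further genes. Of 6 azurophil genes with a probe, the 2 that were called higher were the members Mpo (CL and Sec) and Elane (CL), and none of the other 4 was called at any stage. Prtn3, proteinase 3, was detected at CL only (6.77 in CON and 7.35 in KO), and Ctsg, cathepsin G, on a single array, KO at CL. Of 9 specific and gelatinase granule genes outside the members, 2 were higher at CL, 1 was higher and 2 lower at Sec, and 1 was higher and 1 lower at Mat, with 4 detected on no array. Pglyrp1, a peptidoglycan-binding granule protein, had the members' course in CON (7.25, 5.90 and 6.30) and KO (7.76, 6.49 and 5.87). It was not detected in CON at Sec, so its difference there was at least 0.36. Its differences at CL (0.51) and Mat (-0.43) were under 1.5-fold. Mmp9 and Lyz2, which osteoclasts and macrophages also make, were lower in KO at Sec (-0.86 and -0.72). Hp, haptoglobin, was higher in KO at all stages, by 0.62 at CL, at least 2.64 at Sec and 2.47 at Mat, and so did not close at Mat as the members did.

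Of 13 genes of neutrophil surface and maturity with a probe, 6 were detected on no array. Among these were Csf3r, the receptor of granulocyte colony-stimulating factor, and Cxcr2, the receptor of neutrophil chemokines, both defining markers, and the integrin chains Itgam and Itgb2. At Sec 2 of the 13 were higher, Retnlg by 1.20 and Stfa1, a stefin, by at least 2.67. Stfa1 was neither higher nor lower at CL and was higher at Mat by at least 3.11, unlike most members. Fpr2, a formyl peptide receptor, was detected on all 6 arrays and differed by 0.21, 0.43 and -0.46. Of 5 regulators of transcription in this lineage with a probe, 3 were on no array, among them Gfi1 and Spi1, which encodes PU.1. Runx1, detected on all 6 arrays, was higher in KO at Sec (0.76) and lower at Mat (-0.79). Cebpa was detected on the Sec and Mat arrays of KO alone, and was higher there by at least 0.99 and at least 1.68. RNA of granule proteins was thus measured on arrays where probes of several surface receptors were not above background, which does not show that the receptors were absent. Each array detected 8355 to 8955 of 16593 genes, so undetected probes were common outside these lists too.

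Probes for signals that draw neutrophils were often not above background. So were many others, since each array detected 8355 to 8955 of 16593 genes. Of 12 chemoattractants and cytokines 7 were detected on no array, which does not show that they were absent. At CL 3 were higher in KO, Il1b by at least 1.06, Ppbp by 1.11 and Cxcl1 by at least 0.80. At Sec none of the 2 detected was higher or lower. At Mat 2 of the 4 detected were lower, Cxcl1 and Ppbp, with differences of -0.67 and -0.69 that are bounds. Of the calprotectin receptors, Tlr4 was lower in KO at Sec and Mat, with differences of -0.59 and -0.87 that are bounds, Bsg was lower at Mat with a bound of -1.21, Ager differed by -0.10 at CL and 0.16 at Sec and was not detected in CON at Mat, and Cd36 was on no array.

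Markers of other blood and marrow cells were mixed. Of 10 macrophage and monocyte genes with a probe, 9 were detected at each stage. At Sec 6 of them were lower in KO and 1 higher, with a median difference of -0.76, beside 1.56 for the members. Among all genes considered, 1378 of 9073 were lower in KO at Sec and 1694 of 9218 at Mat. C1qb, a chain of complement C1q, had 10.23, 10.73 and 10.21 in CON and 10.18, 9.96 and 9.89 in KO, and the mannose receptor Mrc1 was lower at Sec by -0.90. The summed linear level of the list lay between 5490 and 7240 in CON and between 4790 and 5400 in KO. Of 7 erythroid genes with a probe 1 was higher at each stage, Slc4a1, by 0.78, 1.91 and 1.62, and it was also among the genes of most similar pattern to S100a8, while Hba-a1, an alpha globin, differed by 0.13, -0.35 and 0.00. Its value lay between 14.23 and 14.59 on all arrays. Of 3 eosinophil genes with a probe 1 was higher at CL and at Sec, Prg2, by 0.73 and 1.07, and at Mat it differed by 0.43. Of 5 T cell genes none was detected at CL and 1 was higher at Sec and at Mat, Cd3g, a chain of the T cell receptor complex, by at least 1.02 and at least 1.56. Of 5 platelet genes 1 was higher at CL, 1 lower at Sec and 1 lower in Mat tissue. The gene called at CL and at Mat was Ppbp, already counted among the chemoattractants. Of 6 B cell precursor genes with a probe none was higher at any stage. Cd79b, a chain of the B cell receptor complex, was lower at Sec and Mat (-0.86 and -0.93), and the osteoclast genes Ctsk, Oscar and Acp5 were lower at both. The summed level of the osteoclast list was 8360 to 14500 in CON and 5010 to 7630 in KO.

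Epidermal genes and keratinocyte alarmins, by contrast, were higher in KO where some members were. Of 15 with a probe, 6 of 8 detected were higher at CL, 11 of 11 at Sec and 7 of 11 at Mat with 1 lower, and the median differences were 0.88, 3.07 and 1.98. The summed linear level was 13100 to 16300 in CON and 19600 to 74500 in KO. Lor, loricrin of the cornified layer, was higher by 2.25, 5.99 and 6.78. S100a7a, an S100 protein of inflamed epidermis chosen outside the naming rule, was detected on the Sec and Mat arrays of KO alone and was higher by at least 4.06 and at least 4.90. Krt16, a keratin of activated epidermis, turned to -1.30 at Mat, after at least 3.07 at Sec. Of the members detected at Mat, S100a8 alone was higher there. Of 4 other epithelial antimicrobials with a probe, 2 were detected on no array. Slpi, an inhibitor of neutrophil elastase made by epithelia, was higher at CL (at least 2.49) and Sec (at least 1.17) and differed by -0.47 at Mat. Wfdc2, the brightest of the 4, went the other way. It differed by -0.16 at CL and was lower in KO at Sec (-1.04) and Mat (-1.28). The part of epidermal cells in the S100a8 signal was not tested.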

How the data were processed

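Biotin-labelled cDNA was put on Illumina bead arrays by the authors, who took the signal from GenomeStudio. The deposited non-normalized table holds a mean intensity for 25697 probes on each of 6 arrays, neither background-subtracted nor scaled between arrays (medians 175.3 to 193.8), and a detection p-value against negative-control beads. The deposited normalized intensity (medians 182.7 to 182.9) was used as an alternative. With R 4.3.3 and limma 3.58.1, neqc corrected the background, applied quantile normalization and gave log2 values at an offset of 16. The platform annotation named the probes. Of them 23978 carried 1 symbol, none several, and 1719 none. A gene took its brightest probe.

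Genes seen on at least 1 of the compared arrays at a detection p-value under 0.01 were considered, and called with a fold of at least 1.5 and the brighter array detected. An undetected side was raised to the floor of its array, which makes the difference a bound. Means over arrays were tested with limma (genotype and stage as terms, genes detected on at least 3 arrays, 2 residual degrees of freedom, Benjamini-Hochberg adjustment, threshold 0.05). Its p rests on the spread between stages and not between animals. The code of the fit was run on simulated arrays whose genotype change was the same at all stages, and that of the rule on invented values. This checks the code and not how well the fit suits these data. The files name no genome build, so RefSeq (GRCm38.p6) served for promoter sequence, chromosomes and neighbours. The number of arrays limits the precision.

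The text names every member, at most 4 genes of each list, from its 4 brightest, and the 5 genes of highest Pearson correlation with the brightest calprotectin and the brightest granule member. Chil4, Eif2s3y, S100a7a, Csf3r, Cxcr2, Itgam and Itgb2 were named outside that rule, after their values were seen. The members and all lists were chosen with earlier results of these data known. Alternatives were the normalized table, common median scaling, an offset of 50, a detection p-value under 0.05, a fold of 2, the mean of all probes, no floor, and for limma no filter on dim genes, no stage term and leaving out each stage.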

Additional observations from a re-analysis of the deposited data

Results flagged for a closer look

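Mpo and Ltf lay above CON in KO at the first 2 stages and below it at Mat, with log2 differences (KO minus CON) of -0.19 and -0.0852. The opposite direction between stages rests on 1 array per genotype and stage and was not tested. Both Mat differences were less than 1.5-fold. With the mean of all probes, undetected ones included, the Mpo difference at Mat was 0.167 and the Ltf difference at CL was -0.028, so the pattern of signs did not hold in either gene.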

How the results depend on the processing

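With a fold of at least 2, 0 members were higher in KO at CL and 0 at Mat, 0 were higher in CON at Mat than at Sec, 3 were lower in KO at Sec than at CL and 1 was lower in KO at Mat than at Sec. With the deposited normalized values, in which no background is subtracted and folds of dim genes shrink, these last comparisons gave 1 member for CON at Mat against Sec and 3 for KO at Mat against Sec. The other 26 of 33 alternative counts of members stayed within 1.5 times. At Sec 8 or 9 members were higher under each of the 7 alternatives. Of 189 alternative differences of single members 181 moved by less than 1.5-fold. The other 8 were at Sec, among them Mpo at 0.79, Chil3 at 0.90 and Lcn2 at 1.13 with the deposited normalized values, Mpo at 0.56 and Ltf at 0.89 with the mean of all probes, which includes undetected ones, and Elane at 1.37 with no floor. No called difference of a member changed sign. With the deposited normalized values 47 genes were higher at CL, against 159, and with a fold of at least 2 there were 31, and 580 at Sec (1059) and 679 at Mat (1163). Genes lower at Sec and Mat numbered 723 and 927 with the deposited normalized values and 474 and 586 with a fold of at least 2, against 1378 and 1694.

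Without the CL arrays limma called 93 genes higher in KO, none of them a member. With common median scaling 154 genes were higher and 158 lower at Mat than at CL, and without the filter on dim genes 0 were higher at Sec than at CL. No member passed the threshold for the genotype under any of 7 alternatives, with adjusted p from 0.193 (S100a8 without the CL arrays) to 0.944. The stage term sets KO against CON within each stage, and without it 0 genes were called as well. By replicate number no paired analysis was possible because each genotype and stage has a single array. Dim probes limit Elane, whose value in CON at Sec and on both Mat arrays was not above detection.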
